A study of Arabidopsis thaliana with 20 samples.

Results

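The plastid genome of Arabidopsis thaliana was represented by 133 of the 37336 genes in the count table, namely every row whose identifier begins with ATCG. Of these, 109 had a length and an average of at least 1 RPKM (counts scaled for gene length and library size) and were tested, while the other 24 had no length and at most 66 counts in any sample. RNA came from leaves of 6-week-old wild-type Columbia-0 plants in 4 groups of 5 samples: non-infiltrated leaves, and leaves examined 2 days after infiltration of about 40 µL of water, SWNTs or PEI-SWNTs. SWNTs are pristine single-walled carbon nanotubes, here with adsorbed single-stranded RNA. PEI-SWNTs are made from carboxylated nanotubes, conjugated with the cationic polymer polyethylenimine and loaded with plasmid DNA. Both were given at 50 ng/µL, so starting nanotube, surface and cargo changed together between these groups. Each sample pooled 4 leaves from different plants.

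Chloroplast genes are read by a bacterial-type RNA polymerase, whose core is itself encoded by the plastid genes rpoA, rpoB, rpoC1 and rpoC2, and by phage-type polymerases encoded in the nucleus. Neighbouring genes are commonly transcribed as one long RNA that is then cut into smaller ones. Unlike cytosolic mRNA, stable chloroplast mRNA lacks a poly-A tail, and the short tails that plastid RNA does receive mark it for degradation. The libraries were selected for poly-A RNA, so a plastid count here is a count of plastid RNA that was retained by that selection, and its relation to total plastid RNA was not measured.

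Stretches of A inside a coding sequence differ strongly between plastid genes and are shown for 6 genes that recur in the results, because poly-A selection can in principle act on them. Each 30-base stretch is the sense strand around the longest run of A of the gene, with that run in capitals, taken from the RefSeq TAIR10.1 plastid sequence.
rpoA: aacctaagAAAAAAAAAAAAAAcaaaagaa
ycf1: aaaatggagAAAAAAAAAAAAAtactcttt
atpB: tcgatacgtgAAAAAAAAAAcctgggacgt
psbC: ttgagtaggttgAAAAAAgacatacaacct
rbcL: ggggttatccgcgAAAAActatggtagagc
rpl14: aagaaggaaatccAAAAggaactcgagttt
The stretches lie on the minus strand at positions 78087 to 78116 (rpoA), 125860 to 125889 (ycf1), 54091 to 54120 (atpB) and 80770 to 80799 (rpl14), and on the plus strand at 34848 to 34877 (psbC) and 55491 to 55520 (rbcL). All 6 lie within the single coding exon of their gene. The runs are 14 bases long in rpoA, 13 in ycf1, 10 in atpB, 6 in psbC, 5 in rbcL and 4 in rpl14.

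Plastid genes took between 3.33% and 6.12% of the counts of a sample. The share was 5.57% ± 0.464 (SD, n = 5) in non-infiltrated leaves, 4.80% ± 0.582 with water, 4.94% ± 0.577 with SWNTs and 3.85% ± 0.449 with PEI-SWNTs. In the 5 non-infiltrated samples it was 5.27%, 4.99%, 6.12%, 5.52% and 5.94%. Water gave 5.25%, 4.90%, 5.45%, 4.16% and 4.24%, and SWNTs gave 4.496%, 4.89%, 4.88%, 4.505% and 5.91%. PEI-SWNTs gave 3.33%, 3.53%, 4.27%, 4.34% and 3.76%. Every PEI-SWNT sample lay below every non-infiltrated and every SWNT sample, and overlapped only with the 2 lowest water samples. The exact 95% binomial intervals of these shares reach at most 0.0108 percentage points to either side, and cover counting error only. In whole leaves, fewer plastids or plastid-bearing cells and less RNA per plastid cannot be told apart.

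The rRNA rows of the plastid genome scattered widely within groups. They held 0.589% to 1.73% of all counts across the 20 samples, with means of 1.07% in non-infiltrated leaves, 0.921% with water, 1.15% with SWNTs and 1.04% with PEI-SWNTs. Without them the plastid share was 4.07% to 5.02% in non-infiltrated leaves, 3.52% to 4.23% with water, 3.56% to 4.18% with SWNTs and 2.55% to 3.17% with PEI-SWNTs. On this measure the PEI-SWNT samples overlapped with no other group. Beside these values, the share of nuclear rRNA, another RNA without a long tail, was 0.528% to 0.732% in non-infiltrated leaves, 0.584% to 0.747% with water, 0.337% to 0.728% with SWNTs and 0.334% to 0.525% with PEI-SWNTs, and its part in the result was not tested. Mitochondrial genes held 3.38% to 4.86% of the counts in non-infiltrated leaves, 2.84% to 3.14% with water, 2.62% to 3.33% with SWNTs and 3.19% to 3.69% with PEI-SWNTs.

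**Figure D1:**
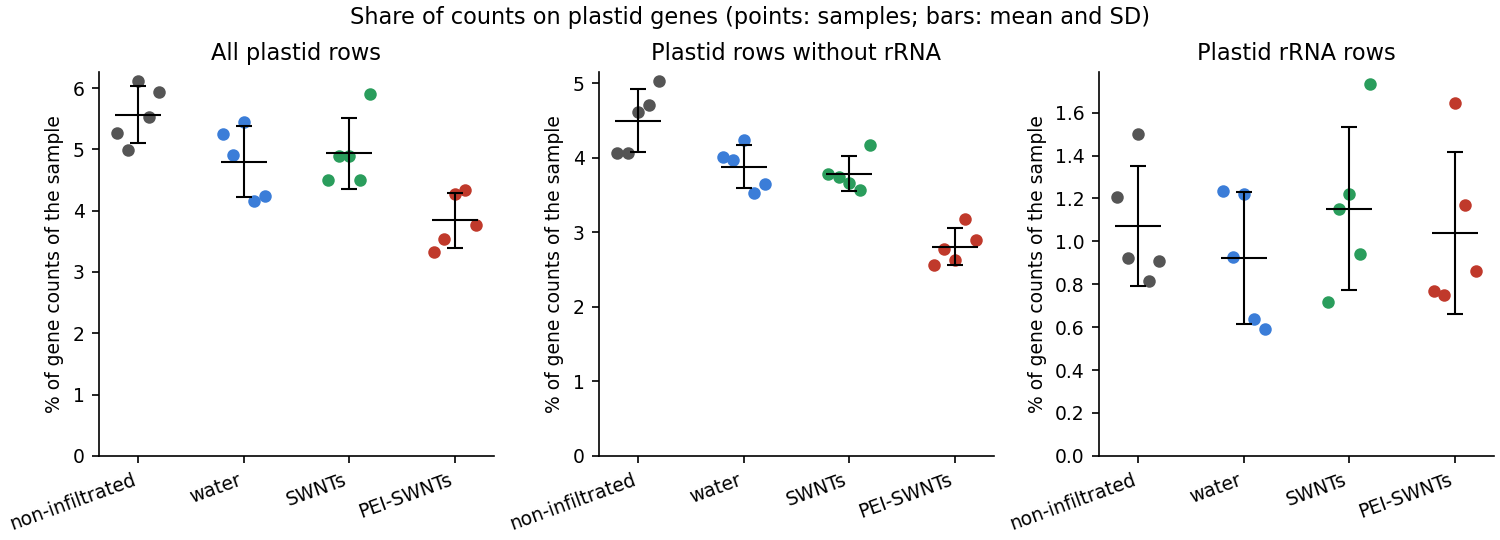
Share of each sample's gene counts (%) on all 133 plastid rows, on plastid rows without rRNA and on plastid rRNA rows, with 1 point per sample and the group mean and SD as bars. Without rRNA, the PEI-SWNT samples sit between 2.55% and 3.17%, below the lowest sample of each other group.

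Across samples the total depth ran from 13387714 to 29737496 counts, with non-infiltrated leaves deepest (median 25701932) and PEI-SWNT leaves shallowest (median 17806729), and plastid genes held 554754 to 1764947 counts. SWNTs replicates 3 and 4 were the replicate pair most alike, but their counts differed by more than sampling noise (chi-square per degree of freedom 3.66, against 6.78 to 61.6 in the other 39 pairs). The median chi-square over genes was 0.69 in this pair and 1.19 to 6.87 in the others. Such values cannot tell 2 libraries of the same RNA from 2 separate samples. The pair was kept as 2 samples, as labelled. Leaf markers were high in every sample, while the root hair markers EXP7 and COBL9 had 0 counts in all 20. The summed level of the mesophyll markers RBCS1A, LHCB1.3 and CA1 was 27603 to 36847 RPKM in non-infiltrated leaves and 31798 to 40747 with water. It was 28449 to 33505 RPKM with SWNTs and 26314 to 34144 with PEI-SWNTs. With PEI-SWNTs, 1 of these 3 was lower than in non-infiltrated leaves (median log2 fold change -0.22) and 1 was lower than with water (median -0.33). With water and with SWNTs, 0 of the 3 differed from non-infiltrated leaves. The summed level of 3 guard cell markers (MYB60, KAT1 and FAMA), all of which were lower in each infiltrated group, was 27.6 to 34.2 RPKM in non-infiltrated leaves, 18.5 to 22.9 with water, 19.1 to 22.8 with SWNTs and 16.0 to 18.9 with PEI-SWNTs. The companion cell marker SUC2 was at 57.5 to 77.6 RPKM in non-infiltrated leaves, 45.5 to 51.5 with water, 52.8 to 61.4 with SWNTs and 61.6 to 77.6 with PEI-SWNTs. The part of such cells in the plastid results was not tested.

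A few plastid genes held most plastid counts of these libraries, and psbA and rbcL, whose proteins are abundant in leaves, were not among them. In non-infiltrated leaves, the large ribosomal subunit gene rpl32 stood highest at 9238 ± 1682 RPKM (SD, n = 5), followed by psbM, a small photosystem II subunit, at 9102 ± 1523. Next came the ATP synthase genes atpE (7950 ± 642) and atpB (6815 ± 489), and then psbC (5743 ± 705) and psbD (5436 ± 618), which encode a core antenna protein and a reaction centre protein of photosystem II. The sample ranges of each neighbouring pair in this order overlapped, whereas psbD in its lowest sample, at 4860 RPKM, was still above the highest sample of the next row, ATCG00400, at 3269 RPKM. By contrast psbA, which encodes the other reaction centre protein of photosystem II, was at 275 ± 19.3 RPKM and ranked 43rd of 109, and rbcL, the large subunit of Rubisco, was at 220 ± 39.7 RPKM and ranked 48th. In total 20 of the 109 rows exceeded 1000 RPKM and 62 exceeded 100. This order depends on division by length, and rpl32 and psbM are only 159 and 105 bases long. In non-infiltrated leaves they had 26103 to 53506 and 18536 to 32441 counts. The atpB gene, 1497 bases long, had 227434 to 331342 counts.

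Expressed as counts, the pair atpB and atpE took 16.6% to 27.0% of all plastid counts of a sample, and the pair psbD and psbC took 22.1% to 29.2%. Plastid rRNA took 13.9% to 38.5%. The gene psbA took 0.222% to 0.730% and rbcL 0.335% to 0.686%. The 4 polymerase subunits were spread over a wide range, with rpoA at 237 ± 67.9 RPKM and rpoB, rpoC1 and rpoC2 at 18.1 ± 4.29, 19.6 ± 3.73 and 12.2 ± 3.83. Of 77 named rows long enough to be compared, 8 shared a 100-base stretch with the nuclear or mitochondrial genome, at most 9.52% of the stretches of a row (both 23S rRNA rows) and 2.98% in a protein-coding gene (rbcL). None of the 6 highest genes shared any.

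**Figure D2:**
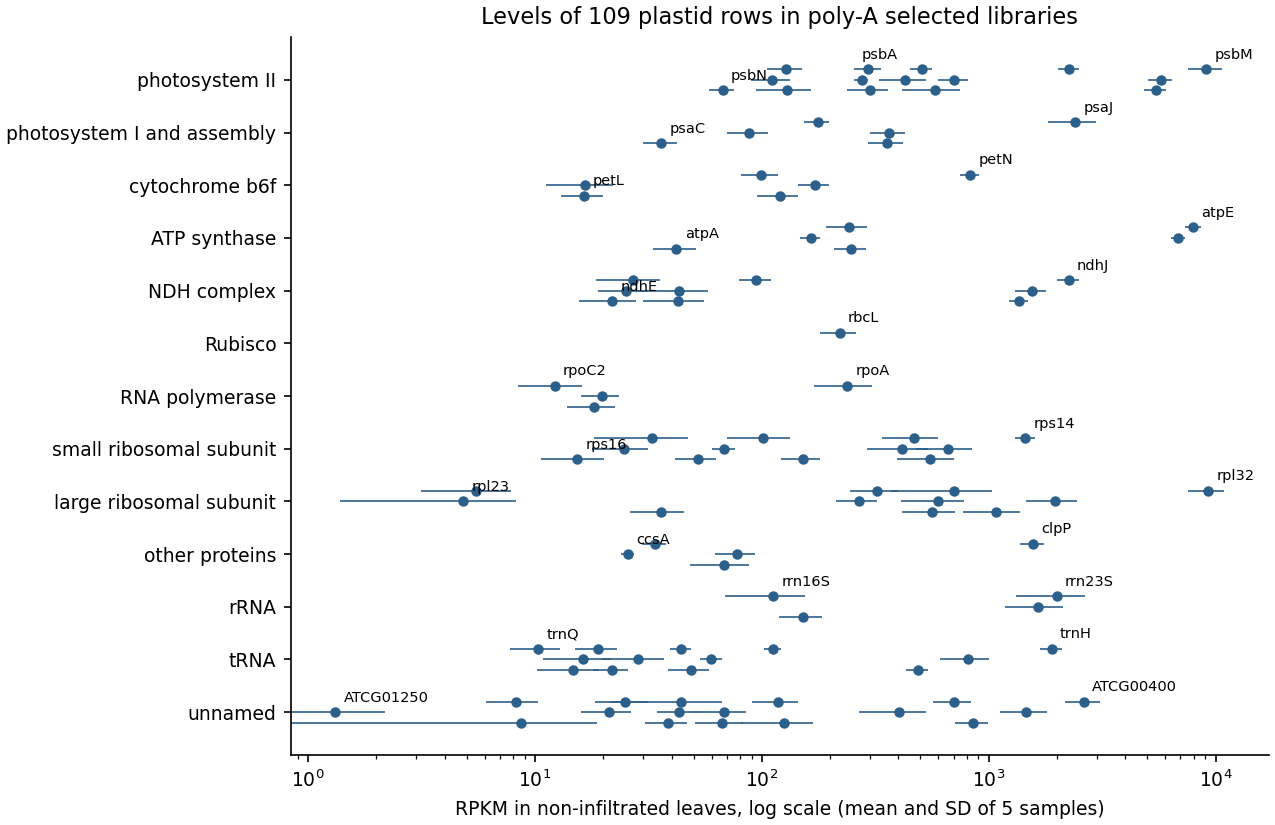
Level of the 109 tested plastid rows in non-infiltrated leaves, as RPKM on a log axis, by class, with the SD of 5 samples as bars; the highest and lowest row of each class and psbA are labelled. Within photosystem II, psbM at 9102 RPKM lies far above psbA at 275 RPKM.

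Each treatment was first compared with non-infiltrated leaves, with edgeR (quasi-likelihood test, p-values adjusted by Benjamini and Hochberg over all 16288 genes tested, threshold 0.05). Plastid genes moved almost only downwards. With water 42 of 109 were lower and 0 higher, where 16.4% of all genes were lower, 16.4% higher and 32.8% changed in either direction. With SWNTs 35 were lower and 0 higher, where 20.3% of all genes were lower, 21.6% higher and 42% changed. With PEI-SWNTs 83 were lower and 1, the tyrosine tRNA gene trnY, was higher, where 31.2% of all genes were lower, 30.4% higher and 61.6% changed. The median log2 fold change of the 109 plastid genes was -0.33 with water, -0.26 with SWNTs and -0.60 with PEI-SWNTs, against 0.00, -0.01 and -0.02 over all genes tested. For the 30 mitochondrial genes tested, the medians were -0.28, -0.25 and -0.23.

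These counts depended on the control samples. Non-infiltrated replicates 4 and 5 stood above the other 3 for several genes (rpl14, rpoA and ycf1 among them), and with both left out, a choice made after the data were seen, 17 genes were lower with water, 11 with SWNTs and 64 with PEI-SWNTs. Of all genes, 14.2%, 18.1% and 27.7% were then lower. The plastid median became -0.16, -0.10 and -0.47. PEI-SWNT replicates 4 and 5 also stood above the rest of their group for rpl14, rpoA and ycf1. For rpl14 they had 512 and 593 RPKM, and the rest 310 to 340 RPKM. They were kept, so this fit left out high samples of the control group only. Without non-infiltrated replicate 5 alone, 21 genes changed with SWNTs.

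With a joint test of the 3 treatments and a fold change of at least 2 in one of them, 17 of 109 plastid genes passed. This share was close to that over all genes, 16.1%, for which the direction was not counted. All 17 were lower, and 11 of them were the genes side by side from rps19 to rpoA and the neighbouring rows ATCG00830 (rpl2) and ATCG00840 (rpl23). The rows of the same sequence, ATCG01310 (rpl2) and ATCG01300 (rpl23), did not pass. In non-infiltrated leaves rpl2 stood at 702 RPKM in ATCG01310 and 35.8 RPKM in ATCG00830, and ATCG00840 had 28 to 65 counts. Without non-infiltrated replicates 4 and 5, 5 passed. With an offset for GC content 18 passed, 3 of them higher. Of the 83 genes lower with PEI-SWNTs, 27 were lower in all 3 treatments, 37 with PEI-SWNTs only, 12 with PEI-SWNTs and water, and 7 with PEI-SWNTs and SWNTs. The 3 comparisons share the non-infiltrated samples, so this division was not tested. It was not made over all genes, so it cannot be called particular to plastid genes.

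**Figure D3:**
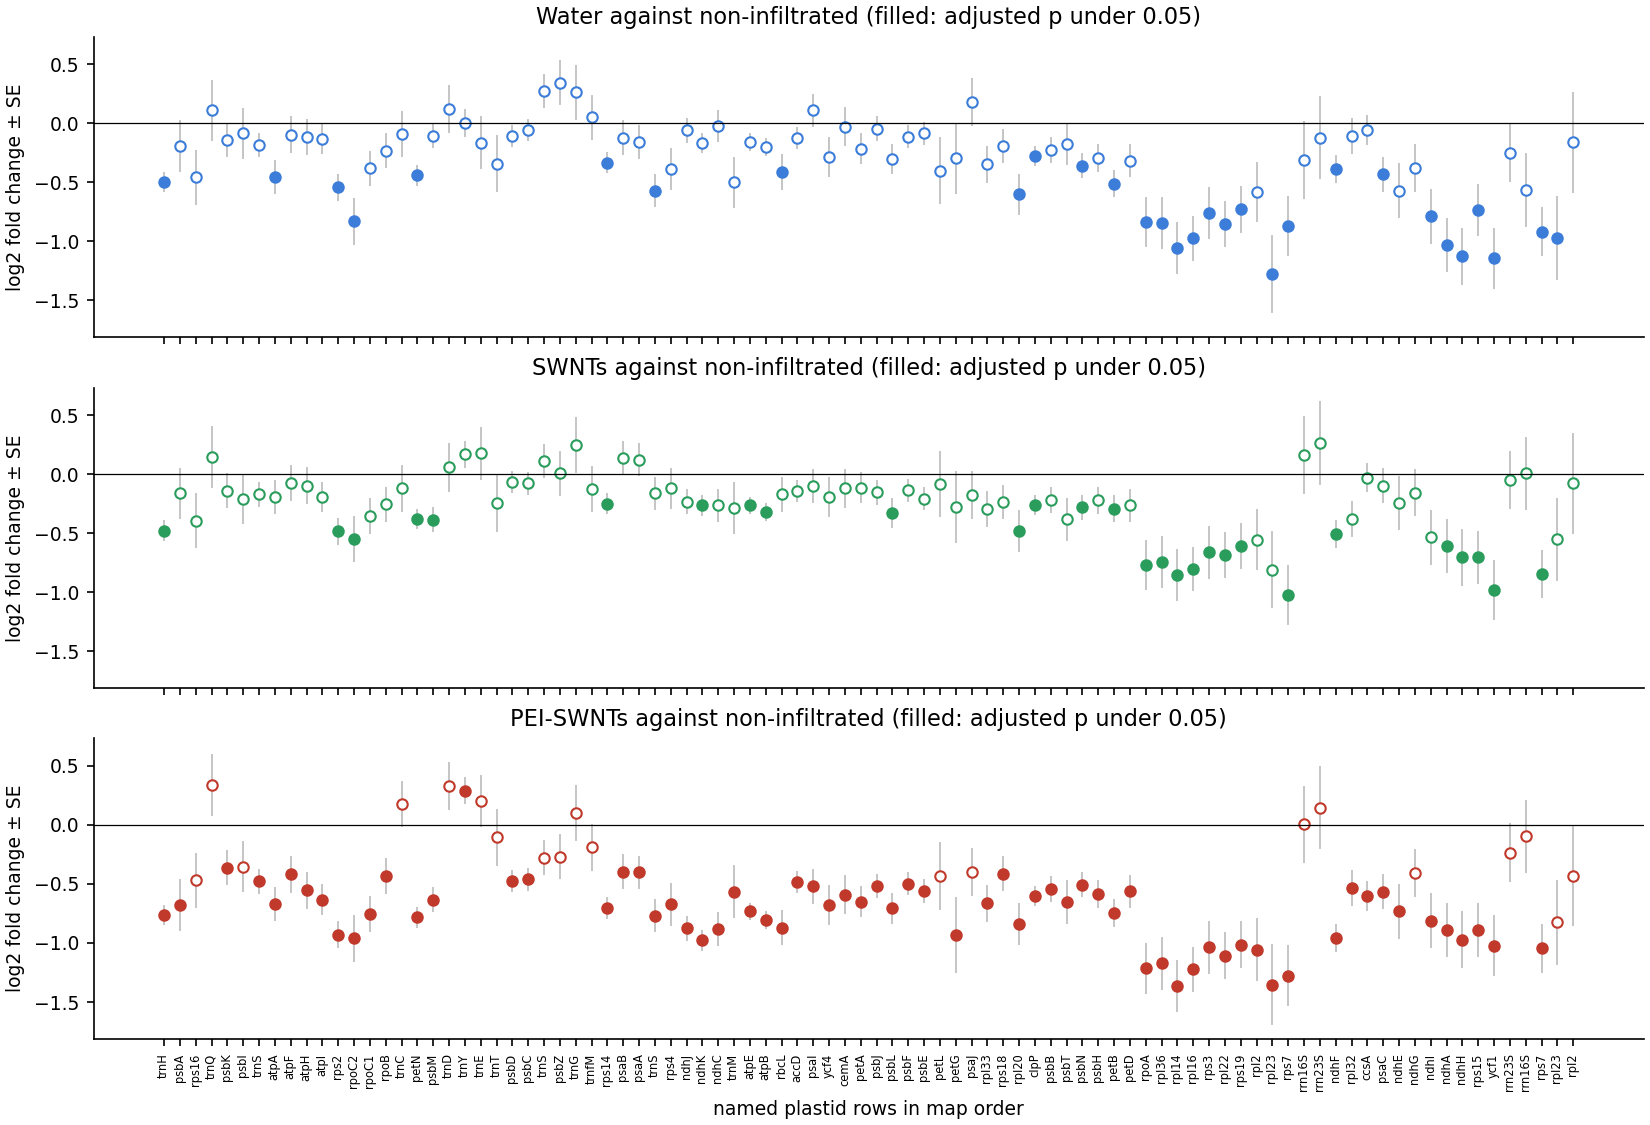
Log2 fold change and standard error of named plastid rows against non-infiltrated leaves, in the order of the plastid map, for water, SWNTs and PEI-SWNTs; filled points passed the test. The genes drawn from rpoA to rps19 lie between -0.73 and -1.05 with water and between -1.02 and -1.37 with PEI-SWNTs.

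One run of neighbouring genes for the plastid's own ribosome and polymerase was lower in every treatment in all of its members. The 9 genes from rps19 to rpoA, among them rpl16, rpl14 and rpl36, lie side by side on the minus strand at positions 77901 to 84283 and encode 8 ribosomal proteins and the alpha subunit of the plastid polymerase. All 9 were lower with water (log2 fold changes of -0.73 to -1.05), with SWNTs (-0.61 to -0.85) and with PEI-SWNTs (-1.02 to -1.37). Their summed level was 2721 ± 736 CPM (library-scaled counts without length correction; SD, n = 5) in non-infiltrated leaves, 1465 ± 350 with water, 1611 ± 275 with SWNTs and 1206 ± 347 with PEI-SWNTs.

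Within this run, rpl14, a protein of the large subunit, had the lowest fold changes. Non-infiltrated samples had 909, 916, 743, 1419 and 1369.9 RPKM, with replicates 4 and 5 well above the other 3. Water samples had 457, 465, 759, 397 and 502 RPKM, so replicate 3 was within the non-infiltrated range. SWNT samples had 740.0, 642, 503, 485 and 593 RPKM. PEI-SWNT samples had 321, 340.4, 310.2, 512 and 593 RPKM, all below the lowest non-infiltrated sample. The log2 fold change was -1.05 ± 0.22 (SE) with water (adjusted p = 0.00133), -0.85 ± 0.22 with SWNTs (adjusted p = 0.00397) and -1.37 ± 0.22 with PEI-SWNTs (adjusted p = 2.48e-05), by edgeR's quasi-likelihood test.

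For rpoA the log2 fold changes were -0.83 ± 0.21, -0.77 ± 0.21 and -1.22 ± 0.21. Non-infiltrated samples ranged from 172 to 323 RPKM and PEI-SWNT samples from 75.4 to 137 RPKM. No gene of the run passed the test between PEI-SWNTs and water (-0.21 to -0.38) or between PEI-SWNTs and SWNTs (-0.34 to -0.51). Without non-infiltrated replicates 4 and 5, 4 of the 9 genes stayed lower with water, 1 with SWNTs and all 9 with PEI-SWNTs.

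The other polymerase subunits gave a less uniform picture. The beta subunit gene rpoB passed the test only with PEI-SWNTs (-0.44 ± 0.15), as did rpoC1 (-0.76 ± 0.15), while rpoC2 was lower in all 3 treatments (-0.83, -0.55 and -0.96). Against water, only rpoC1 was lower with PEI-SWNTs (-0.38 ± 0.15, adjusted p = 0.0465 by edgeR's quasi-likelihood test). Without non-infiltrated replicates 4 and 5, rpoC2 was at -0.46 with water and -0.18 with SWNTs and rpoB at -0.17 with PEI-SWNTs, and these 3 no longer passed.

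Of 12 small subunit rows, 9 were lower with water, 9 with SWNTs and 11 with PEI-SWNTs, with medians of -0.73, -0.64 and -0.97. Of 11 large subunit rows, 7, 5 and 9 were lower, with medians of -0.84, -0.56 and -1.06. Without non-infiltrated replicates 4 and 5, 4, 3 and 8 small subunit rows and 4, 1 and 9 large subunit rows were lower. Outside the rpl14 run, rps2 (-0.54, -0.48 and -0.93), rpl20 (-0.60, -0.48 and -0.84) and rps14 (-0.33, -0.25 and -0.70) were lower in all 3, of which only rps2 stayed lower in all 3 without those replicates. The highest gene, rpl32, passed the test with PEI-SWNTs (-0.53 ± 0.15) but not with water (-0.11 ± 0.15) or SWNTs (-0.38 ± 0.15, adjusted p = 0.0501 by edgeR's quasi-likelihood test). Both rows of rps7, whose sequence occurs in both arms of the inverted repeat of the plastid genome, were lower in every treatment (-0.85 to -1.28). The repeat copies cannot be told apart by sequence, and how the counting treated reads that match both was not given in the sources used here.

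A second run of neighbouring genes was lower in many of its members with each infiltration. It holds ycf1, which encodes a large protein assigned to the import machinery, the ribosomal gene rps15, the photosystem I gene psaC, and the ndhH, ndhA, ndhI, ndhG and ndhE genes of the chloroplast NADH dehydrogenase-like (NDH) complex, which passes electrons back into the photosynthetic chain. These 8 genes had median log2 fold changes of -0.76 with water, -0.57 with SWNTs and -0.85 with PEI-SWNTs, with 6, 4 and 7 of them lower. Between PEI-SWNTs and water 0 of the 8 passed the test and the estimates ran from -0.16 to 0.15. Between PEI-SWNTs and SWNTs 1 of the 8, psaC, was lower and the estimates ran from -0.48 to -0.04.

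Of these, ycf1 stood at 51.1, 63.6, 48.4, 84.7 and 92.8 RPKM in the non-infiltrated samples. It was at 26.3, 28.4, 48.5, 21.1 and 30.3 RPKM with water and at 52.0, 32.5, 27.2, 29.2 and 31.6 RPKM with SWNTs. With PEI-SWNTs it was at 23.2, 25.9, 26.0, 46.7 and 45.9 RPKM. The 3 infiltrated groups overlapped with each other, and 1 water and 1 SWNT sample reached the non-infiltrated range. The log2 fold changes were -1.14 ± 0.26 with water, -0.98 ± 0.26 with SWNTs and -1.02 ± 0.26 with PEI-SWNTs. Without non-infiltrated replicates 4 and 5, 3 of the 8 genes stayed lower with water, 0 with SWNTs and 3 with PEI-SWNTs.

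**Figure D4:**
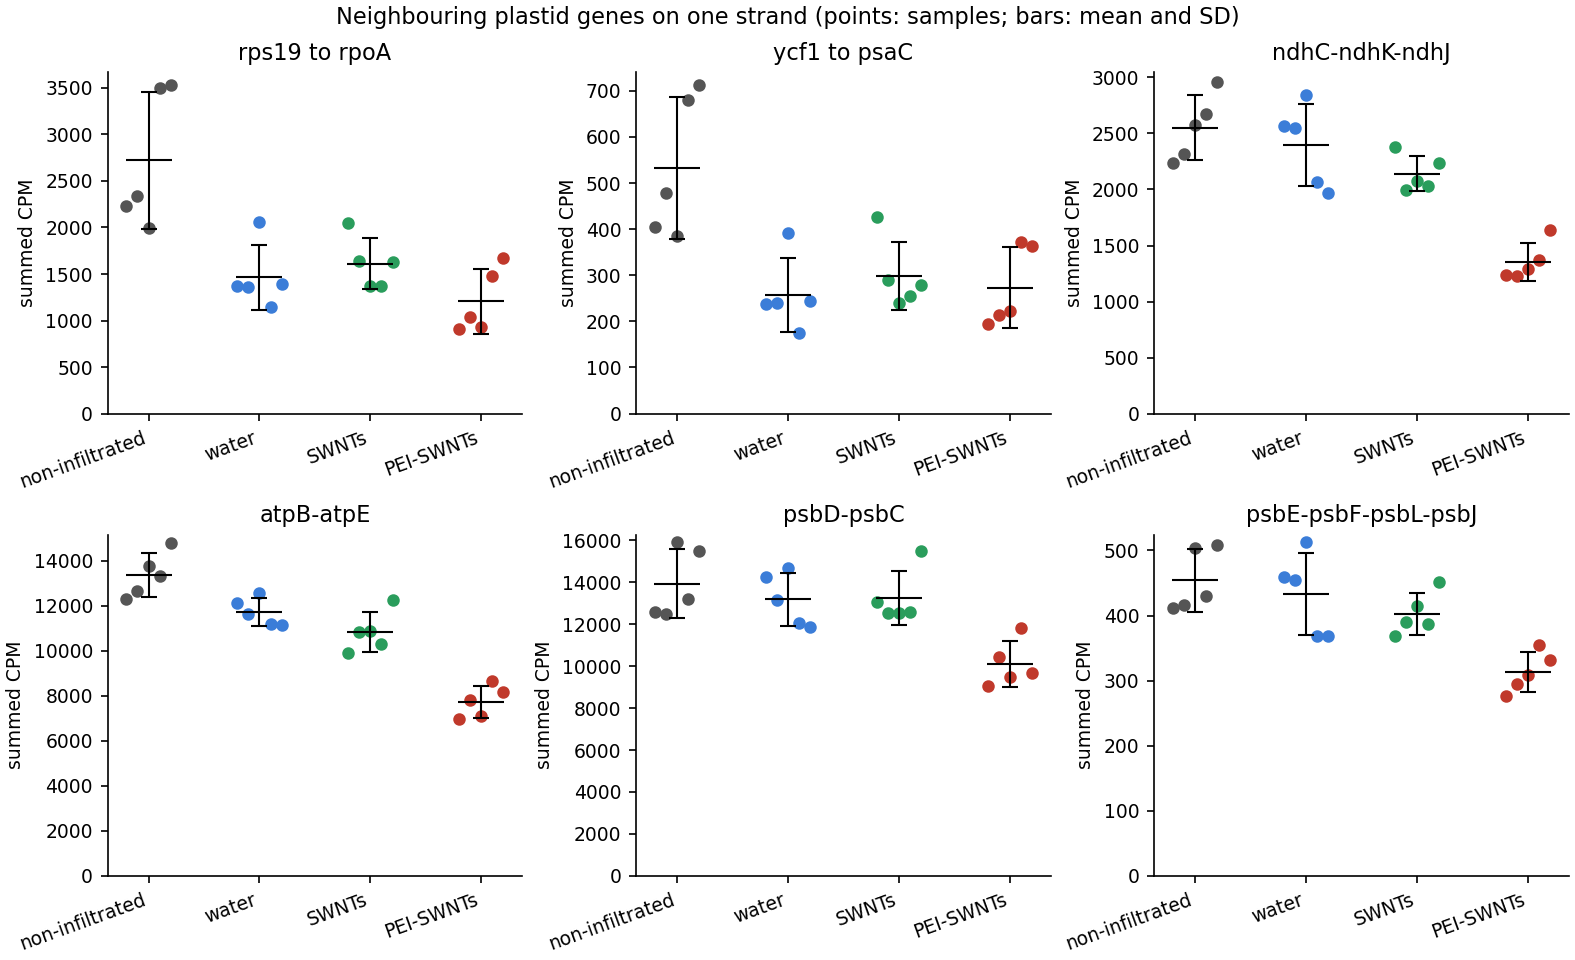
Summed CPM of the genes in 6 runs of neighbouring plastid genes on one strand, with 1 point per sample and group mean and SD as bars. From rps19 to rpoA the water samples reach from 1141 to 2064 CPM, most of them below the lowest non-infiltrated sample at 1998 CPM, whereas for ndhC, ndhK and ndhJ only the PEI-SWNT samples, at 1230.2 to 1637 CPM, lie apart.

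Another set of genes was set apart by PEI-SWNTs. The NDH genes ndhC, ndhK and ndhJ are neighbours on the minus strand at positions 48677 to 50363, far from the ndhH run. They did not pass the test with water (-0.02 to -0.17), while 1 of the 3 was lower with SWNTs (estimates of -0.23 to -0.27). They had the lowest log2 fold changes of the genes that fell between PEI-SWNTs and water (-0.86, -0.81 and -0.82). Non-infiltrated samples had 1226, 1221, 1367, 1458 and 1498 RPKM of ndhK. Water samples had 1261, 1258, 1366, 1094 and 1038 RPKM, and SWNT samples 1175, 1082, 1107, 1059 and 1209 RPKM. PEI-SWNT samples had 641, 659.6, 643, 669.9 and 821 RPKM, all below the lowest sample of every other group. The log2 fold change of ndhK with PEI-SWNTs was -0.98 ± 0.09 against non-infiltrated leaves (adjusted p = 1.12e-08), -0.81 ± 0.09 against water (adjusted p = 2.57e-07) and -0.71 ± 0.09 against SWNTs (adjusted p = 2.39e-06, edgeR's quasi-likelihood test). For SWNTs against non-infiltrated leaves it was -0.27 ± 0.09.

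Across the NDH complex both patterns occurred. Of its 9 named rows, 4 were lower with water, 4 with SWNTs and 8 with PEI-SWNTs, and ndhG did not pass the test in any of the 3 (-0.38, -0.16 and -0.41). The NDH gene ndhF was lower in all 3 (-0.39, -0.51 and -0.96). When non-infiltrated replicates 4 and 5 were left out, 2, 1 and 5 of the 9 rows were lower, and ndhF no longer passed with water (-0.22).

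Among the ATP synthase genes, the catalytic subunit gene atpB was at 6303, 6388, 6982, 6893 and 7507 RPKM in non-infiltrated samples and at 6148, 5818, 6392, 5703 and 5637 RPKM with water, with overlap between the groups. SWNT samples had 4967, 5485, 5495, 5191 and 6205 RPKM. PEI-SWNT samples had 3511, 3936, 3585, 4387 and 4064 RPKM, which set them below all 15 other samples. The log2 fold change with PEI-SWNTs was -0.81 ± 0.08 against non-infiltrated leaves, -0.61 ± 0.08 against water and -0.49 ± 0.08 against SWNTs. With SWNTs against non-infiltrated leaves atpB was also lower (log2 fold change -0.32 ± 0.08, adjusted p = 0.00265 by edgeR's quasi-likelihood test), and with water it did not pass (-0.20 ± 0.08, adjusted p = 0.0524). Its neighbour atpE, which overlaps atpB by a few bases, gave -0.73 ± 0.07, -0.57 ± 0.07 and -0.47 ± 0.07 for PEI-SWNTs against the 3 groups. All 6 ATP synthase genes were lower with PEI-SWNTs (-0.42 to -0.81), against 1 with water and 2 with SWNTs. The number without non-infiltrated replicates 4 and 5 was 4 with PEI-SWNTs, since atpF (-0.29) and atpH (-0.38) no longer passed, 0 with water and 2 with SWNTs.

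Photosystem genes fell moderately and almost only with PEI-SWNTs. Of 15 photosystem II genes, 1 was lower with water, 3 with SWNTs and 13 with PEI-SWNTs, with medians of -0.11, -0.21 and -0.52. With non-infiltrated replicates 4 and 5 left out, 0, 1 and 12 were lower. Against water 11 of the 15 were lower with PEI-SWNTs and against SWNTs 8 were. The highest gene of the class, psbM, was at 7324 to 10479 RPKM in non-infiltrated leaves, 7507 to 9062 with water, 6025 to 7806 with SWNTs and 5447 to 6312 with PEI-SWNTs. Its log2 fold changes were -0.11 ± 0.10, -0.38 ± 0.10 and -0.63 ± 0.10, and it passed the test with SWNTs and PEI-SWNTs. For psbC the values were 5165 to 6617, 4967 to 6129, 5128 to 6375 and 3719.7 to 4909 RPKM, with log2 fold changes of -0.06, -0.08 and -0.46, each ± 0.10. The psbC row shares its first bases with psbD, which overlaps it on the same strand. The psbL gene of the psbE operon, encoding a small photosystem II subunit, had the lowest estimate of the class with PEI-SWNTs (-0.71), and psbZ the highest (-0.27), which did not pass.

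The photosystem II gene psbA varied between samples within the infiltrated groups. It was at 272, 279.6, 258, 261 and 306 RPKM in non-infiltrated leaves and at 265, 252, 258, 252 and 177 RPKM with water. SWNT samples had 136, 270.4, 271, 267 and 284 RPKM, and PEI-SWNT samples had 182, 248, 158, 190.4 and 81.4 RPKM. In psbA, 3 water samples, 1 SWNT sample and all PEI-SWNT samples lay below the lowest non-infiltrated sample. The log2 fold change with PEI-SWNTs was -0.68 ± 0.22 (adjusted p = 0.0109), and psbA did not pass against water (-0.49 ± 0.22, adjusted p = 0.0678) or SWNTs (-0.52 ± 0.22, adjusted p = 0.064, edgeR's quasi-likelihood test).

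Rubisco's large subunit gene rbcL had 200.1, 198, 179, 252 and 272 RPKM in non-infiltrated samples. Water samples had 173, 169, 191, 139.7 and 153 RPKM and SWNT samples 135, 227, 204, 198 and 212 RPKM. PEI-SWNT samples had 123, 153, 99.9, 131 and 94.9 RPKM, none of which reached a non-infiltrated sample. The log2 fold change was -0.41 ± 0.15 with water, -0.17 ± 0.15 with SWNTs and -0.87 ± 0.15 with PEI-SWNTs, and -0.70 ± 0.15 between PEI-SWNTs and SWNTs (adjusted p = 0.00101 with edgeR). The fall with water had an adjusted p of 0.0397 in edgeR and no longer passed in 15 of 34 alternatives, among them the GC offset and non-infiltrated replicates 4 and 5 left out. The nuclear gene of a small Rubisco subunit, RBCS1A, gave 0.15 with PEI-SWNTs and did not pass.

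Of 6 rows of photosystem I and its assembly, 1 was lower with water, 0 with SWNTs and 5 with PEI-SWNTs, and 5 were lower with PEI-SWNTs than with SWNTs. The reaction centre gene psaB was at -0.12, 0.14 and -0.40 against non-infiltrated leaves and at -0.53 ± 0.15 between PEI-SWNTs and SWNTs. The assembly factor gene ycf4 was at -0.68 with PEI-SWNTs. Of 6 cytochrome b6f genes, which link the photosystems, 2, 2 and 5 were lower, petN in all 3 treatments (-0.44, -0.38 and -0.78) and petL in none (-0.40, -0.09 and -0.43). The lowest estimate of this class was petG with PEI-SWNTs (-0.93). In the fit without non-infiltrated replicates 4 and 5, 3 photosystem I rows and 4 cytochrome b6f genes were lower with PEI-SWNTs, and psaB (-0.23) and petG (-0.64) no longer passed.

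Genes with other tasks followed the same direction with PEI-SWNTs. The protease gene clpP, the highest of them, was lower in all 3 treatments (-0.27 ± 0.08, -0.26 ± 0.08 and -0.60 ± 0.08), but without non-infiltrated replicates 4 and 5 only with PEI-SWNTs (-0.16, -0.15 and -0.49). The fatty acid synthesis gene accD passed only with PEI-SWNTs (-0.49 ± 0.09), and so did ccsA, needed for cytochrome assembly (-0.60).

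The 4 rRNA rows passed the test in no comparison (edgeR, 6 comparisons). The 23S rRNA row ATCG00950 was at 0.15 ± 0.35 with PEI-SWNTs and its repeat copy ATCG01180 at -0.24 ± 0.25. Of 13 named tRNA rows, 2 were lower with water, 1 with SWNTs and 4 with PEI-SWNTs. The histidine tRNA gene trnH, the highest of them at 1892 ± 216 RPKM, fell in all 3 (-0.50 ± 0.09, -0.48 ± 0.09 and -0.77 ± 0.09), although with a GC offset the falls with SWNTs (-0.18) and between PEI-SWNTs and SWNTs (-0.08) no longer passed and the value between PEI-SWNTs and water turned from -0.27 to 0.0394. The one gene that rose, trnY, was at 49.4 to 68.2 RPKM in non-infiltrated leaves and 62.8 to 77.8 RPKM with PEI-SWNTs, groups that overlapped. Its log2 fold change of 0.29 ± 0.12 had an adjusted p of 0.0355 (edgeR's quasi-likelihood test) and was lost in 17 of 34 alternatives. The lowest tRNA row with PEI-SWNTs was ATCG00370, a serine tRNA gene (-0.77), and the highest was trnQ (0.34), which did not pass.

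The 17 rows with a length but no name are given by identifier. With water 10 were lower, with SWNTs 5 and with PEI-SWNTs 12, and without non-infiltrated replicates 4 and 5 it was 2, 1 and 6. The highest, ATCG00400, was at 2149 to 3269 RPKM in non-infiltrated leaves and 1476 to 2378 with PEI-SWNTs (-0.58 ± 0.13). Some of the largest fold changes in these rows rested on few samples. ATCG00905 had 56.8, 19.9, 19.9, 57.4 and 66.4 RPKM in non-infiltrated leaves and 8.72 to 14.4 RPKM with PEI-SWNTs (-1.89 ± 0.45), but 1 of 5 water samples was at 59.3 RPKM and the others between 11.4 and 15.1. ATCG00890 ranged from 1.45 to 25.1 RPKM within the non-infiltrated group (-2.52 ± 0.93 with water, and -1.76 and not passing without replicates 4 and 5). ATCG01250 reached 12.3 RPKM in SWNTs replicate 1 and at most 2.72 RPKM in any other sample (-2.18 ± 0.84 between PEI-SWNTs and SWNTs). Among the named rows that lie in both arms of the inverted repeat, rpl2 (ATCG01310) was at 105.8 RPKM in SWNTs replicate 4 and 734 to 878 RPKM in the other 4. Over the 10 such rows the median coefficient of variation within a group was 28.0% to 37.6%, against 12.4% to 20.2% for the 69 named protein-coding genes that occur once.

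Next, PEI-SWNTs were compared with water, which separates the nanotube preparation from the infiltration, and with SWNTs. Against water 37 plastid genes were lower and 1, trnY, was higher, where 24.3% of all genes were lower, 27.7% higher and 51.9% changed. With an offset for GC content the division was 32 lower and 6 higher. The median was -0.27, against 0.00 over all genes and 0.00 over the mitochondrial genes. Photosystem II (11 of 15), ATP synthase (4 of 6), the NDH genes (4 of 9) and other proteins (4 of 5) held most of these genes, while 2 of 12 small subunit and 1 of 11 large subunit rows of the ribosome were lower. The runs psbE, psbF, psbL and psbJ (4 of 4, -0.38 to -0.47) and psbD and psbC (both, -0.40 and -0.37 with psbC first) were among them.

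Against SWNTs 41 were lower and 0 higher, where 19% of all genes were lower, 22.3% higher and 41.3% changed, and the median was -0.35, against 0.00 over all genes and -0.06 over the mitochondrial genes. Of the 37 genes lower than with water, 32 were also lower than with SWNTs, in comparisons that share the PEI-SWNT samples.

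Between SWNTs and water, 0 plastid genes passed edgeR's quasi-likelihood test, where 13.7% of all genes did (6.14% lower and 7.52% higher). At an unadjusted p under 0.05 there were 5, of which 1 was lower, and DESeq2 called 2, 1 in each direction. With a GC offset 1 passed. The median was 0.07, against 0.01 over all genes. The estimates farthest from 0 were those of ATCG00890 (2.24 ± 0.94) and ATCG01250 (1.46 ± 0.77), which varied strongly between samples. Against non-infiltrated leaves, the GC offset gave 33 lower and 4 higher genes for SWNTs.

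The A content of genes varied with the change, as a description across 69 single-copy protein-coding genes that share transcripts and so are not independent. The share of A in the sense strand ranged from 20.7% to 40.4% (median 30.1%), and its Spearman rho with the log2 fold change was -0.54 with water, -0.59 with SWNTs and -0.50 with PEI-SWNTs, so genes rich in A tended to have lower estimates. Leaving out the 17 genes of the rps19 to rpoA and ycf1 to psaC runs, rho was -0.33, -0.37 and -0.20 over 52 genes. Between PEI-SWNTs and water, rho was 0.29 over all 69 genes and 0.20 over the 52. The longest run of A, which ranged from 2 to 14 bases, had a rho of -0.22 with the change with water, -0.22 with SWNTs and -0.23 with PEI-SWNTs, and of -0.18 with the level in non-infiltrated leaves. For the highest number of A in any 20 bases, rho was -0.31, -0.27 and -0.34 with the 3 changes. For GC content, rho with these changes was 0.05, 0.22 and 0.07 over the 69 genes. Of the genes whose stretches are printed above, rpoA and rpl14, with longest runs of 14 and 4 bases, had log2 fold changes of -1.22 and -1.37 with PEI-SWNTs. In the same comparison ycf1, with 13 bases, was at -1.02 and atpB, with 10, at -0.81. The genes psbC, with 6 bases, and rbcL, with 5, were at -0.46 and -0.87. The level itself had a rho of 0.34 with the change with water and -0.04 with PEI-SWNTs.

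**Figure D5:**
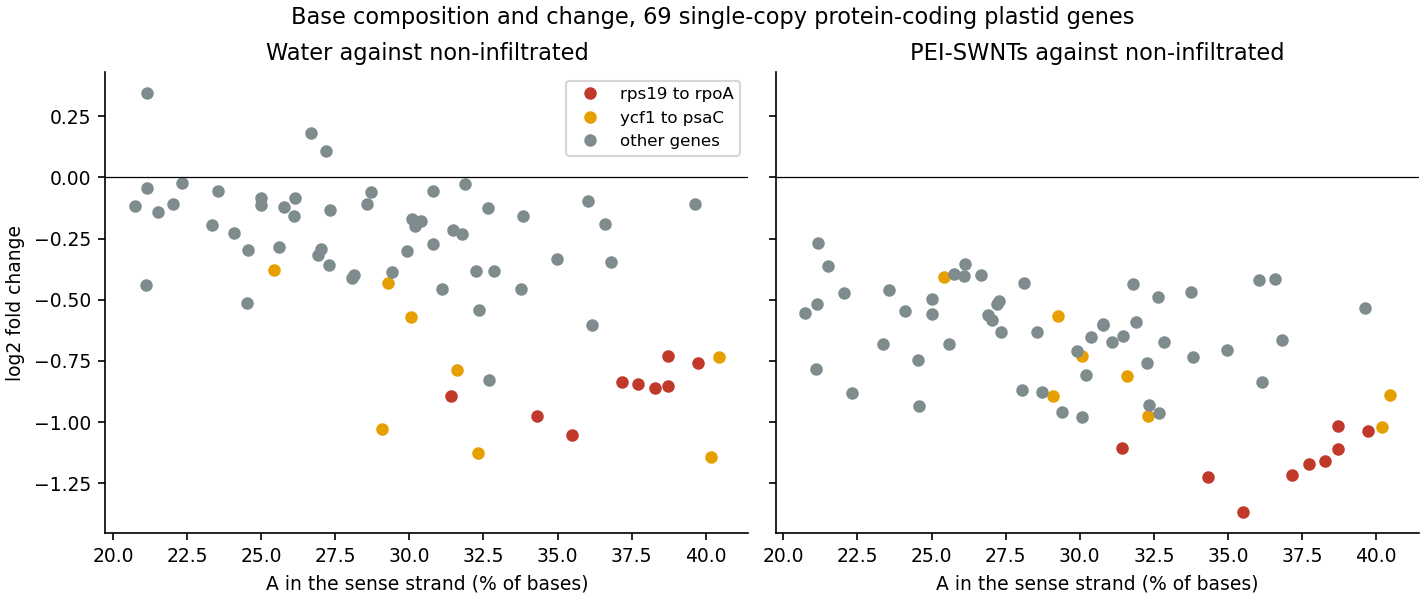
Share of A in the sense strand (% of bases) against the log2 fold change with water and with PEI-SWNTs, with 1 point per single-copy protein-coding plastid gene. The genes from rps19 to rpoA lie above 30.1% A, the median. With PEI-SWNTs all 69 genes lie below 0, and this run holds the lowest values, except that ycf1 (-1.022) lies just below rps19 (-1.015).

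Nuclear genes that act on the plastid genome and its RNA were compared with non-infiltrated leaves in the same fit, where 16.4%, 20.3% and 31.2% of all genes were lower with water, SWNTs and PEI-SWNTs. In the same order, 16.4%, 21.6% and 30.4% of all genes were higher. Of 20 genes that transcribe plastid DNA (sigma factors, phage-type polymerases and polymerase-associated proteins), 4 were lower with water, 4 with SWNTs and 7 with PEI-SWNTs. These lower shares were close to those over all genes, but 0 of the 20 were higher. The median with PEI-SWNTs was -0.17. The sigma factor SIG5 (0.10) and the plastid phage-type polymerase RPOTp (-0.19) did not pass with PEI-SWNTs, whereas the polymerase-associated proteins PAP6 (-0.63) and PAP7 (-0.61) were lower. Of 6 genes of plastid RNA decay and tail addition, 4, 4 and 5 were lower and 0 higher, with a median of -0.62 with PEI-SWNTs. Among them were polynucleotide phosphorylase, which adds and removes plastid tails (PNPase, -0.26, -0.41 and -0.45), and the endonuclease gene RNE (-0.46, -0.48 and -0.81). Of 14 nuclear partners of plastid-coded proteins, 4 were higher and 4 lower with water and likewise with SWNTs, and 6 were lower with PEI-SWNTs, including the NDH subunit genes NDHO (-1.08) and NDHN (-0.90).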

How the data were processed

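RNA of 20 leaf samples was measured by RNA sequencing of poly-A selected libraries. The authors trimmed reads with Trimmomatic, mapped them with HISAT2 to TAIR10 and counted them per gene with featureCounts 2.0.1 (version per the submitters' processing notes, which also name edgeR 3.30.3); the deposited counts are raw. Strand setting and treatment of multiply mapped reads are not given in the sources used here. The authors' second table holds their own comparisons (log2 fold changes, log2 CPM, F score, p-value and adjusted p-value), which were not used; only its gene lengths in base pairs (unit other) were taken, for 139 genes, the rest coming from the TAIR10.1 annotation. Lengths were equal in 16064 of 16068 genes with both, and 146 genes had none.

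Plastid identifiers were not in the annotation and were matched by length to RefSeq plastid genes, 60 by a length that only 1 gene has and 32 by length and matched neighbours; 17 kept their identifier. Groups and replicate numbers came from the sample titles. Genes of at least 1 RPKM on average were normalized by TMM and fitted with edgeR 4.0.16 (glmQLFit, legacy=TRUE, group only, all 20 samples) in R 4.3.3 and adjusted by Benjamini-Hochberg over 16288 genes. RPKM and CPM values are on TMM-scaled library sizes. The procedure was tested on simulated data. Python 3.11.15, pandas 2.3.3 and scipy 1.17.1 served for summaries and matplotlib 3.10.9 for figures.

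Alternatives were RLE or library-size scaling, nuclear genes only for scaling, filterByExpr, no filter, DESeq2 1.42.0, summed repeat copies, a replicate block, a GC offset, only the samples compared, SWNTs replicates 3 and 4 merged, a fold of 1.5 and each sample left out. Plastid rRNA rows left out, and non-infiltrated replicates 4 and 5 left out, were chosen after the data were seen. Members, gene lists, runs of neighbouring genes and named genes (per class the highest level and the highest and lowest change, the 3 largest changes per comparison, and psbA, rbcL and the polymerase genes) were chosen with earlier results of these data known; further genes named in the text were chosen after their values were seen. A few single plastid genes are not reported here by name; group counts include them.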

Additional observations from a re-analysis of the deposited data

Results flagged for a closer look

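In 216 groups of 5 values examined, 16 had a highest or lowest sample far from the other 4 by Dixon's criterion, and chance gives about 1 in 20. SWNTs replicate 5 had the highest plastid share of its group, 5.91% against 4.496% to 4.89%, and stood apart for psbD and psbC together (15517 CPM against 12522 to 13072), clpP (873 CPM against 729 to 749) and accD (52.3 CPM against 42.3 to 43.6). SWNTs replicate 1 was high for the ycf1 to psaC run (427 CPM against 241 to 291), ycf1 itself (279 CPM against 146 to 174) and ATCG01250 (14.3 CPM against 0.131 to 1.21), and low for psbA (145 CPM against 283 to 302). Water replicate 3 was high for the rps19 to rpoA run (2064 CPM against 1141 to 1389) and ATCG00400 (253 CPM against 196 to 211). In water replicate 2, ATCG00905 was at 15.3 CPM against 2.94 to 3.89, and in water replicate 5 psbA was at 188 CPM against 267 to 282. For PEI-SWNTs, ndhK was high in replicate 5 (557 CPM against 435 to 454) and trnY low in replicate 2 (5.28 CPM against 6.19 to 6.53). In non-infiltrated replicate 4, rpl23 (ATCG00840) was at 2.69 CPM against 1.05 to 1.42, and in SWNTs replicate 4, rpl2 (ATCG01310) was at 87.3 CPM against 606 to 724. The cause of these values was not tested.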

How the results depend on the processing

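Leaving out 1 sample at a time gave 32 to 50 plastid genes for water, 21 to 41 for SWNTs and 74 to 88 for PEI-SWNTs against non-infiltrated leaves, 0 to 1 for SWNTs against water, 31 to 47 for PEI-SWNTs against water, 30 to 53 for PEI-SWNTs against SWNTs and 12 to 23 for the joint test; the lowest SWNT count, 21, was without non-infiltrated replicate 5, and the 1 gene for SWNTs against water appeared without water replicate 3 or PEI-SWNTs replicate 5. With non-infiltrated replicates 4 and 5 left out, the counts were 17 for water, 11 for SWNTs, 1 for SWNTs against water and 5 for the joint test, and they were within 1.5 times for the other comparisons. A fold minimum of 1.5 gave 56 in the joint test. Between SWNTs and water, DESeq2 gave 2, and the GC offset, the GC offset with the replicate block and only the 10 samples compared each gave 1. Same-numbered samples showed no common deviation (correlations of -0.36 to 0.29, median 0.03, over 30 pairs), which cannot exclude a pairing by number. For the rps19 to rpoA run, replicates 4 and 5 were highest in both the non-infiltrated and the PEI-SWNT group. In the water and SWNT groups, replicates 3 and 1 were highest. A replicate block gave 40, 31, 84, 0, 36 and 39 genes in the 6 comparisons (in the order water, SWNTs and PEI-SWNTs against non-infiltrated leaves, SWNTs and PEI-SWNTs against water, PEI-SWNTs against SWNTs) and 16 in the joint test. The mean plastid share was 4.32%, 3.74%, 3.64% and 2.69% in non-infiltrated, water, SWNT and PEI-SWNT leaves over protein-coding rows outside the inverted repeat, and 4.497%, 3.88%, 3.78% and 2.81% without rRNA rows; leaving out 1 sample, it was 5.43% to 5.71%, 4.64% to 4.96%, 4.69% to 5.05% and 3.72% to 3.98%. Of 97 changes of named genes, recomputed under 34 alternatives, 3119 values kept direction and threshold, 171 kept the direction and missed the threshold, and 2 reversed, both for trnH between PEI-SWNTs and water (0.0394 with the GC offset and 0.0391 with the replicate block and GC offset). Rows averaging under 1 RPKM were not tested in the main setting, which limits what low rows can show.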
